A study of Homo sapiens with 6 samples.

Results

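The tripartite motif (TRIM) genes encode a family of ubiquitin ligases, and 48 of them were measured here in DU-145 cells, a prostate cancer line of human origin, in cultures where a hairpin RNA that targets MUC1 was or was not switched on. Genes were taken whose symbol is TRIM followed by a number and at most 1 letter, leaving out pseudogenes and hyphenated readthrough transcripts, and with at least 10 reads in at least 3 of the 6 libraries. Of 60662 genes in the count table, 74 symbols had that form and 2 of these, TRIM75P and TRIM80P, were left out as pseudogenes. GENCODE 29 types TRIM80P as a pseudogene but TRIM75P as protein-coding, and TRIM75P was left out for the P that ends its symbol. TRIM75P had 6 reads in sum. Of the remaining 72 genes, 48 met the read minimum and 24 did not, and 14 of those 24 had 0 reads in every library. The member with the fewest reads in sum (104) was TRIM55, a muscle protein gene. It had 7, 15 and 16 reads in the DOX-negative libraries and 29, 23 and 14 in the DOX-positive libraries. Just outside the read minimum was TRIM15, with 8, 15 and 8 reads against 4, 26 and 8. All 48 entered the test, and 45 of them had at least 10 reads in all 6 libraries.

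In every library the cells held a vector from which tetracycline drives a MUC1 short hairpin RNA, MUC1 being the gene of a transmembrane mucin. All had also been exposed for 24 hours to 10 ng/ml of interferon-gamma (IFN-gamma). The 3 DOX-negative cultures had been given vehicle for 7 days and the 3 DOX-positive cultures doxycycline (DOX), the inducer of the hairpin, for the same time. The labels do not say whether the hairpin line was 1 clone, and they speak only of triplicate cultures, so that a p-value reflects how far these cultures spread, which may be technical. Cells without IFN-gamma, and DOX-treated cells with another hairpin, were not analysed here. Effects of DOX and of the hairpin therefore cannot be told apart, and the IFN-gamma response itself was not measured.

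A TRIM protein carries a RING finger, which recruits an E2 enzyme loaded with ubiquitin, then B-box zinc fingers and a coiled coil through which the proteins pair. The domain after the coiled coil differs between classes and generally picks the substrate. Many TRIM genes are induced by interferons, and their products restrict viruses or adjust signalling by cytosolic nucleic acid sensors, while others act as chromatin corepressors or on the cytoskeleton.

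Total counts lay between 87739734 and 150921436 reads, so that a floor of 3 reads, which covers counting error only, was 0.0204 to 0.0328 CPM (read counts scaled to library size, adjusted by the trimmed mean of M values, TMM). MUC1 itself stood at 20.4, 21.8 and 22.2 CPM in DOX-negative and 1.53, 1.31 and 1.32 CPM in DOX-positive libraries, a 15.5-fold fall (edgeR adjusted p = 5.12e-16). Of 24695 genes tested, 56.5% passed an adjusted p of 0.05. All 5 epithelial marker genes checked were detected in every library and were higher in DOX-positive cells. The prostate gene KLK3 had 0 reads in every library. Of 5 leukocyte markers CD3E and MS4A1 had 0 reads, PTPRC and LYZ at most 6 per library, and CD14 fell from 1.02 to 0.286 CPM.

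Promoters of the interferon-inducible members are shown first, because the interferon-stimulated response element (ISRE) is the sequence through which interferon-activated transcription factors bind such genes. The RefSeq promoter table (GRCh38.p14, 250 bases before to 50 after the start) matched 36 of the 48 members, and 12, among them TRIM22 and TRIM16L, were not matched. ISRE was searched as GAAA, any 2 bases and GAAA again, on both strands, so that a match on the opposite strand reads TTTC, 2 bases and TTTC. It was found in 8 of the 36 (22.2%), against 996 of all 27305 promoters (3.65%) and 503 of the 15843 of protein-coding genes (3.17%). Of the 8 interferon-inducible members matched, TRIM5, TRIM14, TRIM21, TRIM26 and TRIM69 held it, and these letters were not in the windows of TRIM25, TRIM38 and TRIM56. The other members with it were TRIM2, TRIM16 and TRIM44, of which TRIM44 is also shown because it had the largest fall in reads. Capitals mark the match, and a match is a description of the letters, not evidence of binding.
TRIM5, chr11:5685025-5685324, minus strand: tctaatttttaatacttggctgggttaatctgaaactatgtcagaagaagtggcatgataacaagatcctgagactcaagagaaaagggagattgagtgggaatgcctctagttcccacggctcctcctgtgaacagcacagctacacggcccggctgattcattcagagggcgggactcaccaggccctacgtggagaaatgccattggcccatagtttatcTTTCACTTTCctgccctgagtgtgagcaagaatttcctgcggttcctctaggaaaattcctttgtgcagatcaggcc
TRIM14, chr9:98119173-98119472, minus strand: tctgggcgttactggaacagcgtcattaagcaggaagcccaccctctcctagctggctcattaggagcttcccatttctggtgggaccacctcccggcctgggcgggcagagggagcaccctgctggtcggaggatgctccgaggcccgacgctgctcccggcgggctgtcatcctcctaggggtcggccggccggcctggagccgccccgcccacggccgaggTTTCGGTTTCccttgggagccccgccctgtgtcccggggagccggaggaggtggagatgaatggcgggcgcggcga
TRIM21, chr11:4393653-4393952, minus strand: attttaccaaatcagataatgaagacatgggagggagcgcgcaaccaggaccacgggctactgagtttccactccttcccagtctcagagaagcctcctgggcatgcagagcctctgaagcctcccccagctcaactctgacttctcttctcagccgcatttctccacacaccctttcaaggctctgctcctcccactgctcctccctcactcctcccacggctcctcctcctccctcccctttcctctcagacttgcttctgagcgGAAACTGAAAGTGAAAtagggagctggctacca
TRIM26, chr6:30213357-30213656, minus strand: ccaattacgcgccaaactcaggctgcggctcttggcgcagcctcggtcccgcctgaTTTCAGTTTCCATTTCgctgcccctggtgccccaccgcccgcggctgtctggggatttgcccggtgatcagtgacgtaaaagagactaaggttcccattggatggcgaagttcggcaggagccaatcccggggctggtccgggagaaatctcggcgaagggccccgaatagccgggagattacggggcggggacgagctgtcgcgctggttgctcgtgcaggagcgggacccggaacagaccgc
TRIM69, chr15:44736278-44736577, plus strand: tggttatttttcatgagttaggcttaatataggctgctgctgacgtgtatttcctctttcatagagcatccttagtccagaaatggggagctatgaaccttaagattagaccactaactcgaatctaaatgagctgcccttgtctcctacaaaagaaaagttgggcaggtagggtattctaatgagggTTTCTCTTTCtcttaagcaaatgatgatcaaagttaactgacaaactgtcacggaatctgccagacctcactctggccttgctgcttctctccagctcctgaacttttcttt
TRIM44, chr11:35662525-35662824, plus strand: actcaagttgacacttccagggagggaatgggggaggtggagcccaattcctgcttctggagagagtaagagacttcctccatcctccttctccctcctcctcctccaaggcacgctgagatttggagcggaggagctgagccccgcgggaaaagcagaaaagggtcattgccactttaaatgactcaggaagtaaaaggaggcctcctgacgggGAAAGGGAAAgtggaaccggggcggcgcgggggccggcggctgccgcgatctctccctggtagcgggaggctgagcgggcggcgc
Counted from the start, with negative numbers upstream, the match begins at -27 in TRIM5, -26 in TRIM14, -62 in TRIM69 and -35 in TRIM44. In TRIM21 a pair of overlapping matches begins at 17 and 23, and in TRIM26 such a pair begins at -194 and -188. By the test given below, 5 of the 17 matched members that were lower held the motif, 3 of the 14 that did not pass, and 0 of the 5 that were higher. Another interferon element, the gamma-activated sequence (searched as TTCNNNGAA, both strands), was in 3 of the 36 windows (8.33%, against 7.88% of all promoters). The antioxidant response element, searched as TGACNNNGC on both strands, was in 3 (8.33%, against 13.6%). The 3 motifs can overlap each other, and a window without a match says nothing of the factor.

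Of the 48 members, 25 were lower in DOX-positive cells, 6 were higher and 17 did not pass (edgeR quasi-likelihood test, Benjamini-Hochberg adjustment over 24695 genes, threshold 0.05). Lower members made up 52.1% of the family, where 28.9% of all genes tested were lower, and higher members 12.5%, where 27.6% of all genes were higher. Of the 48 members 42 had a mean of at least 1 CPM. Among genes at that level the figures were 54.8% lower and 14.3% higher for the 42 members, and 32.2% lower and 41% higher for 15009 genes, of which 73.3% passed in either direction (69.0% of the members). Most of the changes were small, and 21 of the 31 called members changed less than 1.5-fold. At least 2-fold lower were 7 members (14.6%, against 9.38% of all genes), namely TRIM22, TRIM16L, TRIM31, TRIM17, TRIM73, TRIM16 and TRIM44. No member was at least 2-fold higher (0 with edgeR, also at an unadjusted p under 0.05, with DESeq2 and with limma-voom, against 3.56% of all genes). The groups did not overlap in CPM for 34 members (70.8%, against 62.4% of all genes).

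The median log2 fold change, DOX-positive against DOX-negative, was -0.21 over the 48 members and -0.04 over all genes tested, and the median size of the change was 0.30 and 0.37. With library size alone in place of TMM the median of all genes moved by -0.14, the members split into 36 lower and 4 higher, and all genes into 9579 lower and 4689 higher. Summed over the family, expression was 2458.9, 2379.8 and 2413.1 CPM in DOX-negative libraries and 1966.7, 1985.0 and 2011.1 CPM in DOX-positive libraries. The mean fell by 429.8 CPM, or 17.8%. Of that net fall TRIM44 made up 26.0%, TRIM25 18.2%, TRIM16L 12.3%, TRIM38 11.2%, TRIM56 10.5% and TRIM14 4.91%, together 83.1%. In RNA from whole cultures, fewer cells expressing a gene and less RNA of it per cell cannot be told apart.

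**Figure D1:**
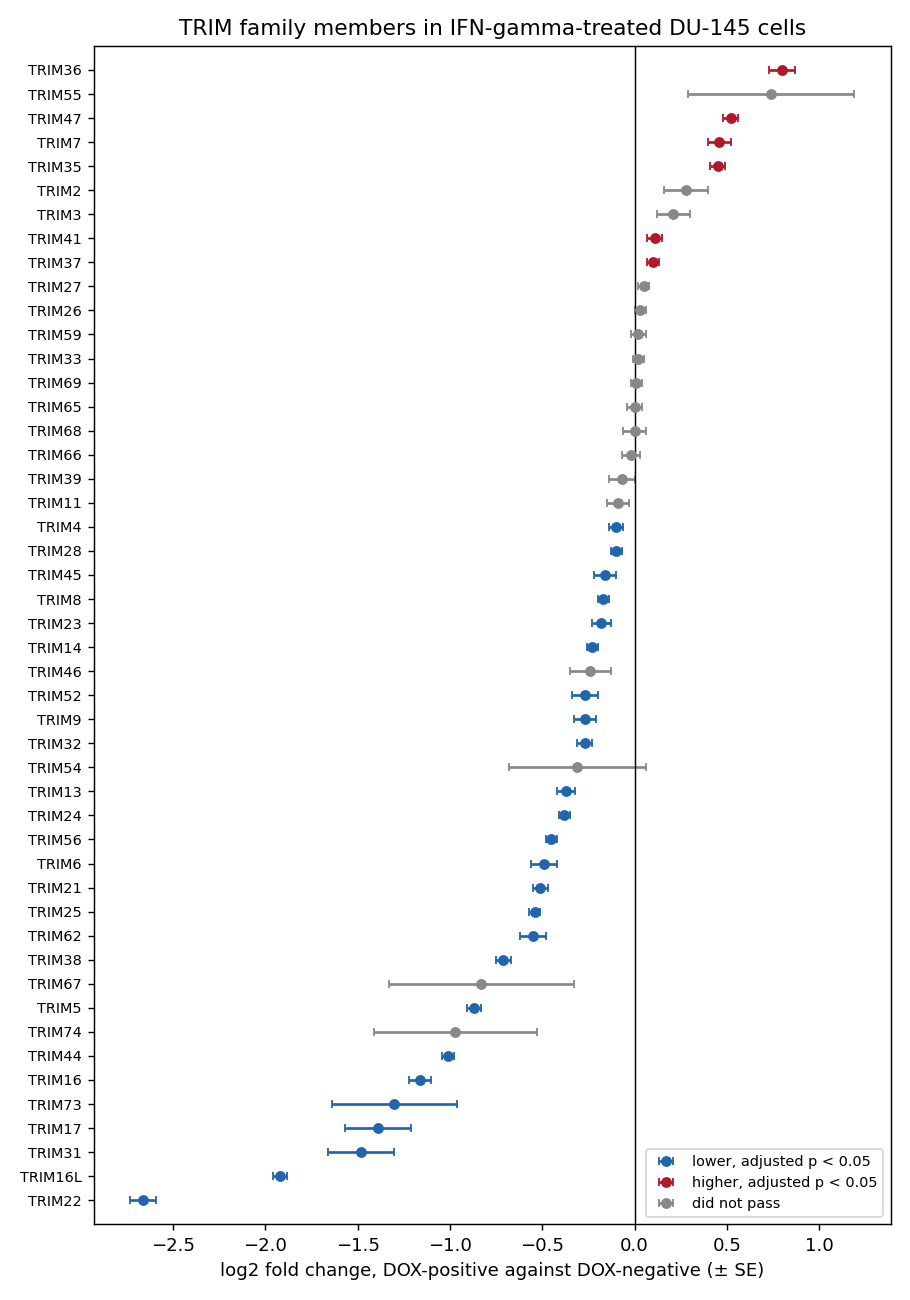
Log2 fold change (DOX-positive against DOX-negative, x axis) with its standard error for each of the 48 TRIM members, ordered by size and coloured by call. The 25 lower members reach -2.66 (TRIM22), and the 6 higher members stay at or below 0.80 (TRIM36). The wide bars of TRIM67, TRIM74, TRIM73, TRIM54 and TRIM55 belong to genes under 1 CPM.

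Levels of different genes were compared per length, as RPKM, which here is CPM divided by the gene length of the count table in kilobases. Over all 6 libraries 37 members were at or above 1 RPKM and 11 below it. TRIM28, the corepressor of KRAB zinc finger proteins, was highest, with 33.5 ± 0.406 RPKM in DOX-negative and 31.3 ± 1.15 RPKM in DOX-positive cells (SD, n = 3 each). In DOX-negative cells TRIM25 (26.5 ± 0.609 RPKM) and TRIM14 (26.0 ± 0.215 RPKM) came next and did not differ beyond their spread. In DOX-positive cells TRIM37 (22.6 ± 0.0455 RPKM) and TRIM14 (22.1 ± 0.330 RPKM) followed TRIM28, and TRIM25 stood at 18.2 ± 0.117 RPKM. TRIM16L moved furthest down among the 20 highest members, from 16.6 ± 0.867 to 4.39 ± 0.156 RPKM. TRIM22 was a low gene in both groups, at 2.27 ± 0.0750 and 0.358 ± 0.0165 RPKM.

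**Figure D2:**
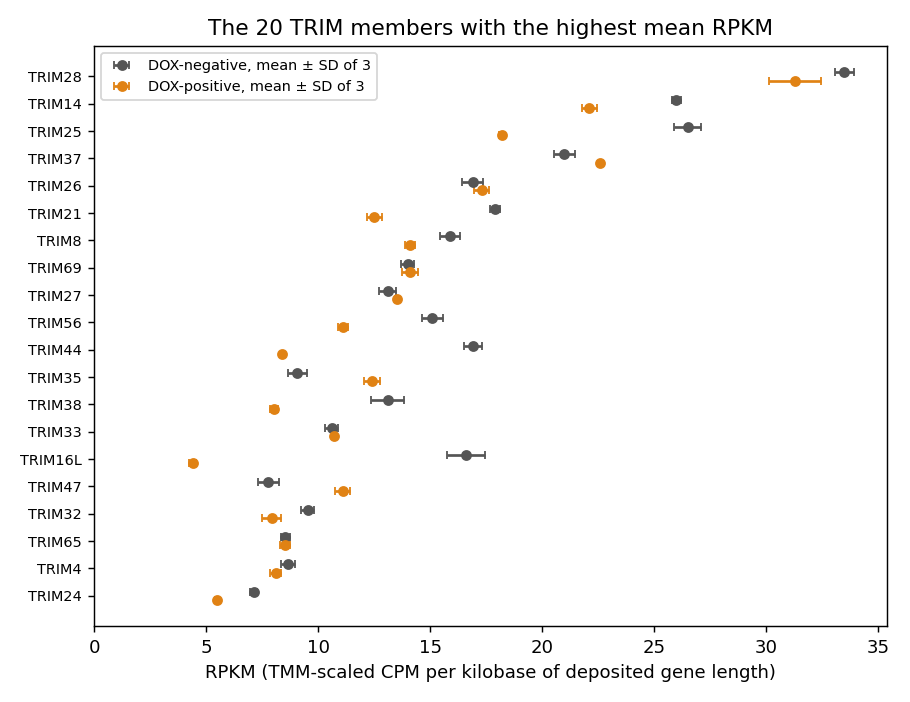
RPKM (x axis, mean ± SD of 3 libraries) of the 20 members with the highest mean, in DOX-negative (grey) and DOX-positive (orange) cells. TRIM28 leads in both groups, while TRIM16L drops from 16.6 to 4.39 and TRIM44 from 16.9 to 8.40.

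Among interferon-inducible members, 7 of 9 were lower, 0 were higher and TRIM26 and TRIM69 did not pass. All 9 had a mean of at least 1 CPM, and among all genes at that level 32.2% were lower and 73.3% passed in either direction. The median log2 fold change of the 9 was -0.51, against -0.04 over all genes. No member of the list was higher at an unadjusted p under 0.05 with edgeR, with DESeq2 or with limma-voom, and with library size alone all 9 were lower. The tenth gene of the list, TRIM34, was under the read minimum, with 5, 11 and 4 reads against 2, 3 and 1. The summed level of the 9 was 992.6, 952.9 and 975.7 CPM in DOX-negative and 739.5, 742.6 and 755.4 CPM in DOX-positive libraries, so every DOX-positive sum was below every DOX-negative one.

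TRIM22 (ENSG00000132274.16, chromosome 11, 5689689 to 5737089, plus strand, GRCh38), an antiviral ligase, fell furthest of all members. It stood at 13.4, 13.1 and 14.0 CPM in DOX-negative and 2.08, 2.24 and 2.07 CPM in DOX-positive libraries. The groups were far apart and tight within, a 6.31-fold fall (log2 fold change -2.66, SE 0.07, edgeR adjusted p = 3.62e-14). TRIM5 (chromosome 11, 5663557 to 5938619, minus strand), which binds incoming retroviral capsids, stood at 36.8, 34.4 and 35.9 CPM against 19.1, 19.2 and 20.2 CPM. It fell 1.83-fold without overlap (log2 fold change -0.87, SE 0.04, edgeR adjusted p = 1.53e-11). In GENCODE 29 TRIM22 lies within the span of TRIM5 on the opposite strand. The library kit keeps strand but the strand setting used in counting is not stated, so reads of overlapping or antisense genes may not be fully separated.

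TRIM25 (chromosome 17, 56836387 to 56914080, minus strand), which attaches ubiquitin to the RNA sensor RIG-I, read 257.0, 245.5 and 251.9 CPM in DOX-negative and 172.1, 173.1 and 174.3 CPM in DOX-positive libraries. The groups did not overlap, and TRIM25 fell 1.45-fold (log2 fold change -0.54, SE 0.03, edgeR adjusted p = 3.27e-10). TRIM38, which dampens signalling through the TAB2 and TAB3 adaptors, read 126.0, 116.0 and 129.3 CPM against 73.9, 76.2 and 76.8 CPM. Its lowest DOX-negative library was well above its highest DOX-positive one, a 1.64-fold fall (log2 fold change -0.71, SE 0.04, edgeR adjusted p = 1.58e-10). TRIM21, the cytosolic antibody receptor, read 34.2, 34.8 and 35.0 CPM against 23.7, 25.0 and 24.0 CPM. It fell 1.43-fold, again without overlap (log2 fold change -0.51, SE 0.04, edgeR adjusted p = 3.16e-09).

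TRIM56, which acts in STING and TLR3 signalling, read 174.3, 167.1 and 164.0 CPM in DOX-negative and 125.9, 120.9 and 123.7 CPM in DOX-positive libraries. All DOX-positive values were lower, a 1.36-fold fall (log2 fold change -0.45, SE 0.03, edgeR adjusted p = 9.39e-09). TRIM14, an adaptor at the mitochondrial protein MAVS, read 143.6, 142.6 and 141.3 CPM against 121.2, 119.7 and 123.3 CPM. It fell 1.17-fold, without overlap (log2 fold change -0.23, SE 0.03, edgeR adjusted p = 8.33e-06). TRIM14 overlaps NANS on the opposite strand, which averaged 59.0 CPM and had a log2 fold change of 0.57.

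TRIM26 read 76.3, 72.7 and 72.7 CPM in DOX-negative and 74.1, 75.7 and 77.1 CPM in DOX-positive libraries, and the groups overlapped (log2 fold change 0.03, SE 0.03, edgeR adjusted p = 0.400). TRIM69, an antiviral member, read 130.9, 126.8 and 131.7 CPM against 127.3, 130.5 and 133.9 CPM, also overlapping (log2 fold change 0.01, SE 0.03, edgeR adjusted p = 0.837). Both hold the ISRE letters printed above, as do TRIM5, TRIM14 and TRIM21, which fell. With library size alone TRIM26 and TRIM69 stood at -0.11 and -0.13.

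**Figure D3:**
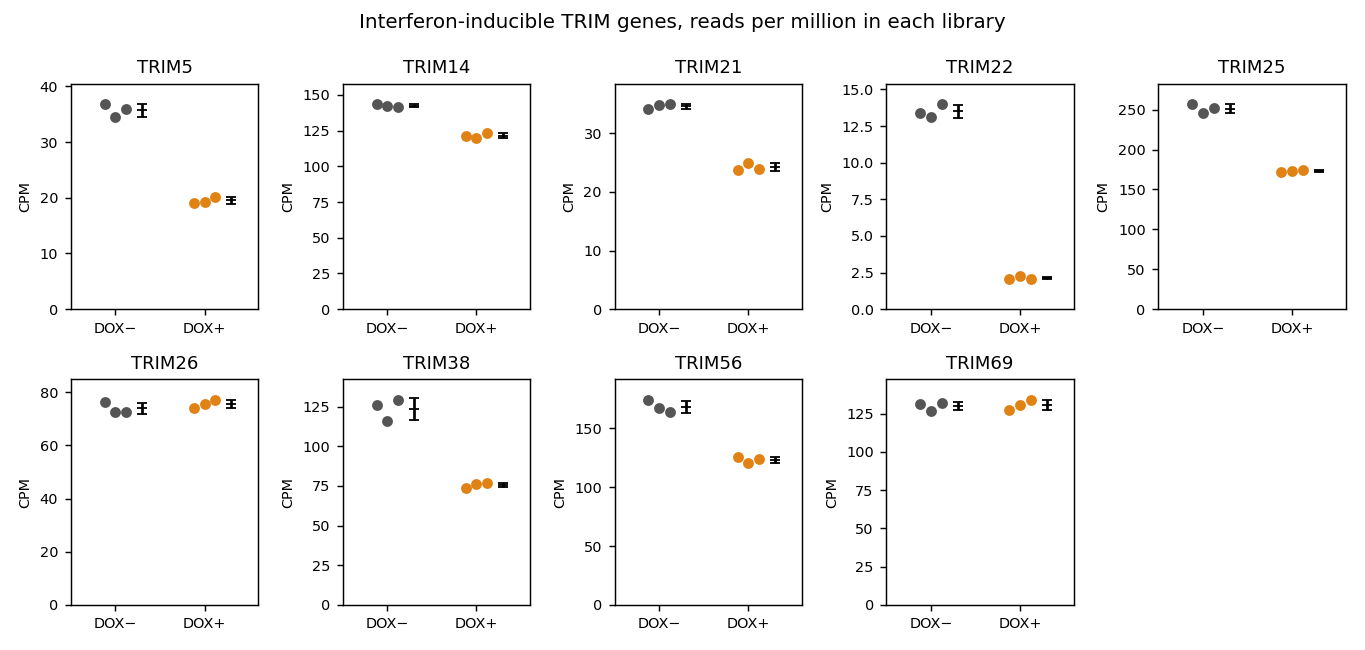
CPM in each library (y axis from 0, dots) with mean ± SD of 3 (bars) for the 9 interferon-inducible members, DOX-negative (DOX−) and DOX-positive (DOX+). In 7 panels the groups are apart, with the widest relative gap for TRIM22 (13.5 against 2.13 CPM on average), while TRIM26 and TRIM69 overlap.

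Of 14 members with roles in innate immune signalling, 6 of them also in the interferon list, 11 were lower, 0 were higher and TRIM26, TRIM27 and TRIM65 did not pass (median log2 fold change -0.25, against -0.04 over all genes). All 14 had a mean of at least 1 CPM, and among all genes at that level 32.2% were lower and 73.3% passed in either direction. None was higher at an unadjusted p under 0.05 with edgeR, or with DESeq2 or limma-voom, and 10 to 14 were lower under the other scalings. TRIM31, a ligase of MAVS, was low, at 2.17, 2.06 and 1.79 CPM in DOX-negative and 0.901, 0.671 and 0.595 CPM in DOX-positive libraries. It fell 2.79-fold, without overlap (log2 fold change -1.48, SE 0.18, edgeR adjusted p = 1.91e-06). TRIM13, a ligase of the endoplasmic reticulum membrane, had a log2 fold change of -0.37 (edgeR adjusted p = 4.94e-06). TRIM32 had one of -0.27, and TRIM23, which also carries an ARF GTPase domain, -0.18. TRIM8 had a log2 fold change of -0.17. TRIM4, at -0.10 (edgeR adjusted p = 0.0337), lost its call in 9 of the 14 alternative fits, among them those without DOX-negative replicate 1 (edgeR adjusted p = 0.397) or 3, or without any 1 of the DOX-positive replicates. TRIM23 lost its call without DOX-negative replicate 3 (edgeR adjusted p = 0.0652).

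The sensors and adaptors with which these ligases work were described from a list of 15 genes. In it 8 were lower, 2 higher and 5 did not pass, where 28.9% of all genes tested were lower and 27.6% higher. The 15 had means of at least 1 CPM, and among all genes at that level 32.2% were lower and 41% higher. The median log2 fold change of the 15 was -0.16, against -0.04 over all genes. DDX58, which encodes RIG-I, fell from 77.3 ± 2.27 to 49.4 ± 1.32 CPM (log2 fold change -0.64, edgeR adjusted p = 6.39e-11). TMEM173, which encodes STING, fell from 52.7 ± 2.34 to 37.3 ± 1.05 CPM (log2 fold change -0.50). The TLR3 adaptor gene TICAM1 rose from 44.7 ± 2.05 to 62.0 ± 1.64 CPM (log2 fold change 0.47), and TAB3 from 62.4 ± 2.93 to 83.8 ± 2.03 CPM (log2 fold change 0.43).

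The E2 enzymes of the UBE2D, UBE2E, UBE2N and UBE2W kinds carry ubiquitin and are bound by RING ligases, which help them pass it to the substrate. Of 11 such genes, counting the UBE2V cofactors of UBE2N, 10 were higher and UBE2V1 did not pass (median log2 fold change 0.32). Of all genes tested 27.6% were higher, and of those with a mean of at least 1 CPM 41%. The 11 split into 9 higher and 1 lower under library size alone and under upper-quartile scaling. UBE2D4 rose from 17.5 ± 0.576 to 28.6 ± 0.717 CPM (log2 fold change 0.71). UBE2N, which with its cofactors builds K63-linked chains, rose from 72.4 ± 2.09 to 105.3 ± 1.55 CPM (log2 fold change 0.54, edgeR adjusted p = 4.43e-10).

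TRIM44 (chromosome 11, 35662805 to 35818007, plus strand), a RING-less member with a ubiquitin-protease-type zinc finger, had 224.1, 215.6 and 225.4 CPM in DOX-negative and 109.1, 110.3 and 110.9 CPM in DOX-positive libraries. It lay 2.01-fold lower, with no overlap (log2 fold change -1.01, SE 0.03, edgeR adjusted p = 1.91e-13), and at -0.98 with DESeq2 size factors, just short of 2-fold. TRIM16L and TRIM16 are near-identical copies on chromosome 17, and how reads shared by both were counted is not given in these sources. TRIM16L (18697998 to 18736118, plus strand) read 74.8, 73.0 and 67.6 CPM against 19.5, 18.2 and 19.3 CPM, a 3.78-fold fall without overlap (at -1.92 on the log2 scale, SE 0.04, edgeR adjusted p = 2.34e-15). TRIM16 (15627960 to 15684311, minus strand), which binds galectins in autophagy, read 25.1, 25.2 and 22.8 CPM against 12.0, 10.4 and 10.3 CPM, 2.24-fold lower without overlap (log2 fold change -1.16, SE 0.06, edgeR adjusted p = 6.68e-11). Together with TRIM14 these are 4 of the 5 members that lack a RING finger, and the remaining one, TRIM66, did not pass. The median of the 5 was -1.01, against -0.04 over all genes, of which 28.9% were lower. TRIM66 was also lower with library size alone.

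By domain class, 12 of 23 members with a PRY-SPRY domain were lower, 4 higher and 7 did not pass (median log2 fold change -0.10, against -0.04 over all genes). Of all genes tested 28.9% were lower and 27.6% higher, and of those with a mean of at least 1 CPM 32.2% and 41%. The median of the 23 was -0.05 without DOX-negative replicate 1, -0.06 without DOX-positive replicate 1 and -0.24 with library size alone. That class held most interferon-inducible members and also TRIM7, TRIM35, TRIM41 and TRIM47, which were higher. Of 7 members without a C-terminal domain, 6 were lower and TRIM74 did not pass, where 28.9% of all genes tested were lower. The median of this class was -0.97, which was -0.58 without DOX-positive replicate 1 and -0.48 over the 5 members left by a filter of 1 CPM. None of the 7 was higher at an unadjusted p under 0.05 with edgeR, with DESeq2 or with limma-voom. Of the class, TRIM52 stood at -0.27 on the log2 scale, and TRIM73 at -1.30 (SE 0.34, edgeR adjusted p = 0.00376) on a level of 0.368 ± 0.0240 against 0.146 ± 0.0531 CPM. TRIM73 and TRIM74 are near-identical copies on chromosome 7. In GENCODE 29 the span of TRIM73 also overlaps NSUN5P1 and STAG3L1 on the same strand. These averaged 11.3 and 0.634 CPM (log2 fold changes -0.07 and -0.71), so reads of TRIM73 may not be fully separated from theirs. TRIM74 read 0.231, 0.334 and 0.186 CPM against 0.0474, 0.166 and 0.172 CPM, without overlap (log2 fold change -0.97, SE 0.44, edgeR adjusted p = 0.0750).

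**Figure D4:**
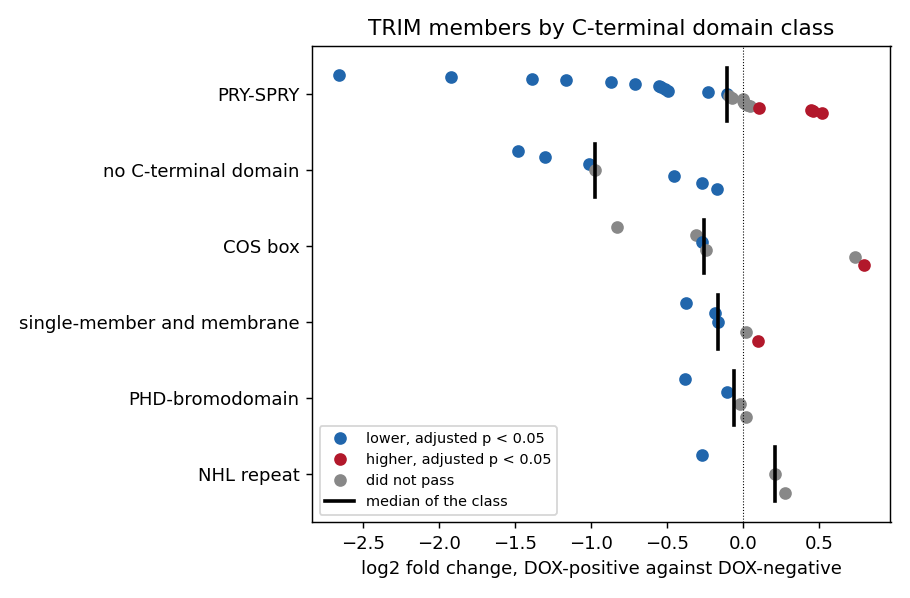
Log2 fold change (x axis) of each member, grouped by the domain after the coiled coil, with the class median as a black line and colours by call. The PRY-SPRY class spans both directions around a median of -0.10, and the class without a C-terminal domain lies wholly below 0, around -0.97.

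The 4 chromatin corepressors with a PHD finger and a bromodomain were split, with 2 lower and 2 that did not pass (median log2 fold change -0.06, and all 4 lower with library size alone). Their means were at least 1 CPM, and among all genes at that level 32.2% were lower and 73.3% passed in either direction. TRIM24, a coregulator of nuclear receptors, read 64.7, 66.6 and 67.4 CPM in DOX-negative and 50.5, 51.9 and 50.5 CPM in DOX-positive libraries. It fell 1.30-fold, without overlap (log2 fold change -0.38, SE 0.03, edgeR adjusted p = 2.29e-08). TRIM28 read 145.7, 142.4 and 145.1 CPM against 129.4, 136.4 and 139.0 CPM. The groups did not overlap, but the difference was 1.07-fold (log2 fold change -0.10, SE 0.03, edgeR adjusted p = 0.0247) and the call was lost in 7 of the 14 alternative fits, among them those without DOX-negative replicate 1 or 3 or DOX-positive replicate 1 or 2 (edgeR adjusted p between 0.0780 and 0.220). TRIM33, which binds SMAD proteins, read 101.0, 98.7 and 104.5 CPM against 102.7, 103.2 and 103.1 CPM, with overlap (log2 fold change 0.02, SE 0.03, edgeR adjusted p = 0.580, -0.12 with library size alone). TRIM66, which binds heterochromatin protein 1, stood at 13.8 ± 0.643 and 13.5 ± 0.367 CPM (edgeR adjusted p = 0.720). It overlaps RPL27A on the opposite strand, which averaged 210.0 CPM (log2 fold change 0.02), so its reads may not be fully separated.

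Among 9 partner genes of these corepressors 4 were lower, 3 higher and 2 did not pass (median log2 fold change 0.05, which was -0.10 with library size alone and -0.01 with upper-quartile scaling). Each of the 9 had a mean of at least 1 CPM, and among all genes at that level 32.2% were lower and 41% higher. SMAD2, a TGF-beta signal transducer, fell from 404.5 ± 15.7 to 209.2 ± 2.47 CPM (log2 fold change -0.95, edgeR adjusted p = 6.58e-13). CBX5, which encodes heterochromatin protein 1 alpha, rose from 480.7 ± 14.8 to 825.1 ± 2.92 CPM (log2 fold change 0.78, edgeR adjusted p = 8.82e-13). SMAD4 fell with a log2 fold change of -0.26 and ATF7IP, a cofactor of the histone methyltransferase SETDB1, with one of -0.39. SETDB1 stood at 54.9 ± 1.54 and 57.0 ± 0.311 CPM and did not pass (edgeR adjusted p = 0.159).

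TRIM36 (chromosome 5, 115124762 to 115180546, minus strand), a microtubule-binding ligase with a COS box, had the largest rise. It read 5.82, 5.21 and 5.45 CPM in DOX-negative and 9.28, 9.37 and 9.94 CPM in DOX-positive libraries, 1.74-fold higher without overlap (log2 fold change 0.80, SE 0.07, edgeR adjusted p = 6.13e-08). Of the 6 COS-box members, TRIM9, a neuronal ligase, was the 1 that fell (log2 fold change -0.27, edgeR adjusted p = 0.00160), and TRIM46, TRIM54, TRIM55 and TRIM67 did not pass (median of the 6 -0.26, which was -0.10 without DOX-negative replicate 1). Of all genes tested 28.9% were lower and 27.6% higher. TRIM46 passed as lower in 4 of the 14 alternative fits. TRIM54, TRIM55 and TRIM67 were under 1 CPM, with log2 fold changes of -0.31, 0.74 and -0.83 (SE 0.37, 0.45 and 0.50) and adjusted p-values of 0.496, 0.179 and 0.175 (edgeR). TRIM54 read 0.332, 0.15 and 0.273 CPM against 0.190, 0.228 and 0.172 CPM, TRIM55 0.0704, 0.102 and 0.175 against 0.275, 0.159 and 0.141 CPM, and TRIM67 0.181, 0.30 and 0.175 against 0.0379, 0.228 and 0.0908 CPM. In all 3 the groups overlapped. TRIM67 passed without DOX-positive replicate 2 (-1.77, edgeR adjusted p = 0.0163).

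TRIM47 read 26.2, 23.5 and 23.8 CPM in DOX-negative and 34.0, 35.1 and 36.1 CPM in DOX-positive libraries, a 1.43-fold rise without overlap (log2 fold change 0.52, SE 0.04, edgeR adjusted p = 3.42e-08). TRIM35, reported to bind the glycolytic enzyme PKM2, read 36.2, 39.3 and 39.5 CPM against 52.2, 53.9 and 51.0 CPM, 1.37-fold higher (log2 fold change 0.45, SE 0.04, edgeR adjusted p = 3.49e-08). TRIM7, first described as a partner of glycogenin, read 9.57, 10.7 and 9.30 CPM against 13.4, 14.1 and 13.2 CPM, 1.37-fold higher (log2 fold change 0.46, SE 0.06, edgeR adjusted p = 8.70e-06). In all of these the groups did not overlap, and the rises held in all 14 alternative fits.

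The other 2 higher members changed little. TRIM37, a peroxisomal and centrosomal ligase, read 114.2, 113.2 and 118.0 CPM in DOX-negative and 123.5, 123.5 and 123.9 CPM in DOX-positive libraries (log2 fold change 0.10, SE 0.03, edgeR adjusted p = 0.0110). TRIM41 read 50.5, 50.3 and 45.9 CPM against 52.6, 52.0 and 53.3 CPM (0.11 on the log2 scale, SE 0.04, edgeR adjusted p = 0.0250). Neither group pair overlapped, but both genes stood at -0.04 with library size alone, where neither passed. TRIM37 also lost its call with upper-quartile scaling, and TRIM41 lost its call in 5 of the 14 fits in all, among them those without replicate 3 of either group (edgeR adjusted p = 0.0949 and 0.0671).

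**Figure D5:**
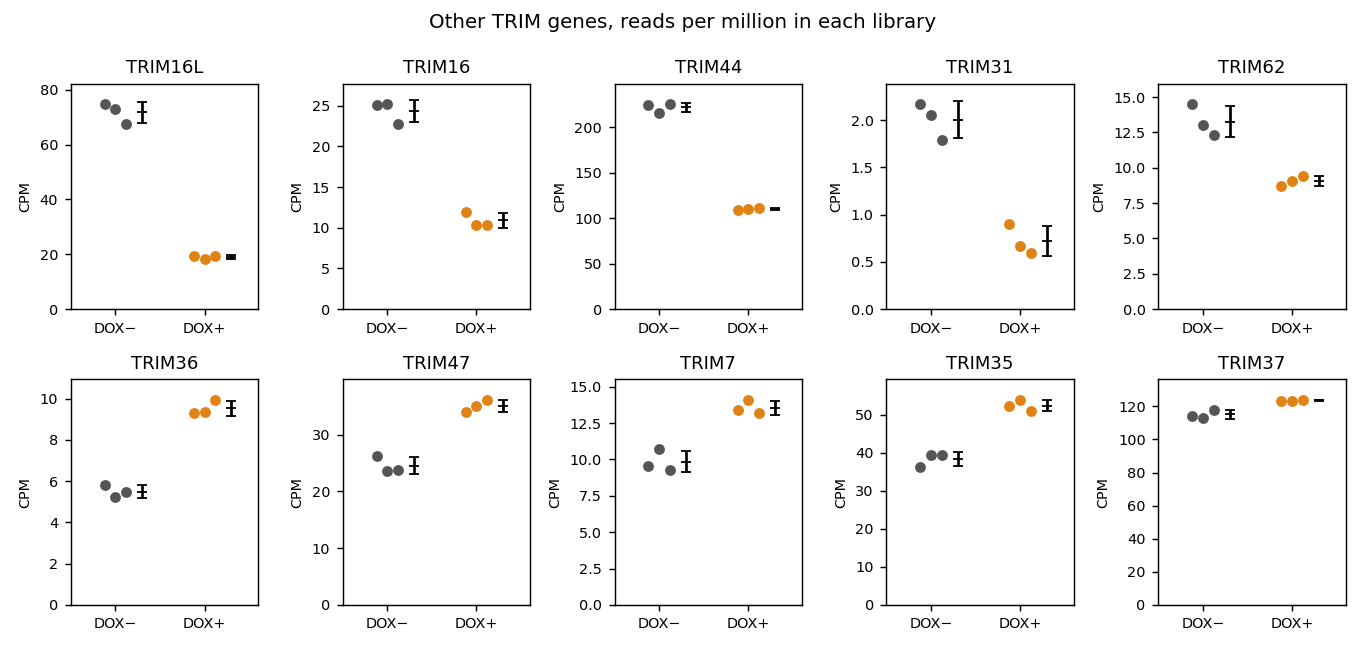
CPM in each library (y axis from 0, dots) with mean ± SD of 3 (bars) for 5 lower and 5 higher members outside the interferon list. The relative gap is widest for TRIM16L (71.8 to 19.0 CPM on average) and narrowest for TRIM37. In CPM it is widest for TRIM44 (221.7 to 110.1 CPM).

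Among the remaining lower members, TRIM62, linked to epithelial polarity, read 14.5, 13.0 and 12.3 CPM in DOX-negative and 8.72, 9.08 and 9.42 CPM in DOX-positive libraries. It fell 1.47-fold, without overlap (log2 fold change -0.55, SE 0.07, edgeR adjusted p = 2.16e-06). TRIM17, studied in neuronal apoptosis, read 1.44, 1.57 and 1.25 CPM against 0.522, 0.616 and 0.474 CPM, 2.63-fold lower without overlap (log2 fold change -1.39, edgeR adjusted p = 5.42e-06). TRIM6, which makes unanchored ubiquitin chains, fell 1.40-fold (log2 fold change -0.49, edgeR adjusted p = 1.46e-05). TRIM45, at -0.16 with an edgeR adjusted p of 0.0405, had overlapping groups and lost its call in 9 of the 14 alternative fits, among them those without any 1 library except DOX-negative replicate 3 (edgeR adjusted p between 0.0605 and 0.191).

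Of the NHL-repeat members, TRIM32 was the 1 that passed, where 73.3% of all genes with a mean of at least 1 CPM did. TRIM2 and TRIM3, both best known in neurons, read 2.24, 2.41 and 2.08 against 2.99, 2.53 and 2.7 CPM and 5.18, 4.78 and 5.10 against 5.70, 5.34 and 6.38 CPM. Neither pair of groups overlapped, with log2 fold changes of 0.28 and 0.21 and adjusted p-values of 0.0602 and 0.0527 (edgeR), and both passed with DESeq2 size factors. TRIM3 also passed without DOX-negative replicate 1 or DOX-positive replicate 2 (edgeR adjusted p = 0.0283 and 0.0290). The other members that did not pass lay near 0. They were TRIM11 (log2 fold change -0.09, edgeR adjusted p = 0.168), TRIM39 (-0.07, 0.481), TRIM65 (-0.00, 0.931), TRIM68 (0.00, 0.958), TRIM59 (0.02, 0.649) and TRIM27 (0.05, 0.252), with overlapping groups for all. TRIM11 stood at 20.5 ± 1.17 and 19.3 ± 1.34 CPM, TRIM39 at 6.95 ± 0.302 and 6.63 ± 0.383 CPM, and TRIM65, which ubiquitinates the RNA sensor MDA5, at 33.3 ± 0.776 and 33.2 ± 0.859 CPM. TRIM68 stood at 10.7 ± 0.484 and 10.7 ± 0.239 CPM, and TRIM59 at 37.0 ± 1.51 and 37.5 ± 0.592 CPM. TRIM27 read 107.9, 104.6 and 102.0 CPM against 108.3, 108.6 and 107.7 CPM.

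Neighbouring members did not share a call everywhere. On chromosome 1, TRIM46 ends 853 bases from MUC1. TRIM46 read 3.92, 3.67 and 3.42 CPM in DOX-negative and 2.92, 3.09 and 3.30 CPM in DOX-positive libraries. Its groups did not overlap, and it did not pass (log2 fold change -0.24, SE 0.11, edgeR adjusted p = 0.0594). TRIM17 and TRIM11 lie 1100 bases apart at -1.39 and -0.09, and TRIM47 and TRIM65 lie 1760 bases apart at 0.52 and -0.00. In 11p15, TRIM5, TRIM6, TRIM21 and TRIM22 were lower and TRIM3, TRIM66 and TRIM68 did not pass (median of the 7 -0.49). These 7, and the 5 of 6p named next, had means of at least 1 CPM, where 32.2% of all genes were lower. In the major histocompatibility region of 6p and next to it, TRIM31 and TRIM38 were lower and TRIM26, TRIM27 and TRIM39 did not pass (median of the 5 -0.07, and all 5 lower with library size alone). That median was -0.01 without DOX-negative replicate 1, -0.04 without its replicate 3, -0.02 without DOX-positive replicate 1 and -0.11 without its replicate 2. TRIM39 overlaps the antisense gene HCG18, which at 82.8 CPM on average is far above the 6.79 CPM of TRIM39.

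Family members under other names gave mixed calls. PML, the scaffold of nuclear bodies and itself interferon-inducible, fell from 130.7 ± 2.11 to 113.9 ± 1.27 CPM (log2 fold change -0.20, edgeR adjusted p = 4.34e-05). RNF207 fell from 9.17 ± 1.08 to 5.17 ± 0.319 CPM (log2 fold change -0.83, edgeR adjusted p = 4.96e-07). MID2, a COS-box relative that binds microtubules, rose from 9.74 ± 0.131 to 12.9 ± 0.162 CPM (log2 fold change 0.40, edgeR adjusted p = 7.25e-06). Its paralogue MID1 stood at 38.7 ± 2.53 and 37.2 ± 1.88 CPM and did not pass (edgeR adjusted p = 0.346).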

How the data were processed

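RNA of 6 DU-145 cultures was sequenced as polyadenylated, stranded libraries, per the labels' protocols, and groups and replicate numbers come from the sample titles. The deposited table gives whole-number read counts per gene and library, not normalized, with a gene length. Build GRCh38.p7 and the tools STAR 2.7.9a, CASAVA 1.8.2 and DESeq2 1.24.0 stand in the submitters' processing notes with no role or order. The counting tool, annotation, strand setting and treatment of shared reads are, in the sources used here, not given, so overlapping and near-identical genes are uncertain. Chi-square per degree of freedom over gene counts was 6.40 to 20.8 within groups and 214 to 285 across them, so no library was counted as a duplicate.

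The test was edgeR 4.0.16 (R 4.3.3) by quasi-likelihood with TMM scaling and group as the only term, over 24695 genes kept by filterByExpr (minimum count 10, minimum total 15). Means are ± SD, n = 3. Positions come from GENCODE 29 on GRCh38 and promoters from RefSeq on GRCh38.p14.

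The members and gene lists were chosen with earlier results of these data known. Named were 11 preset members, up to 8 with the largest change per direction (adjusted p under 0.05, mean of at least 1 CPM, no overlap), the 3 highest per length, all that did not pass, and up to 4 of each partner list. TRIM17, TRIM6, TRIM73 and the small changes fall outside that rule and were chosen after their values were seen, as were the markers, neighbours and overlaps named. Of the markers checked, 2 are not reported here. The alternatives tried were scaling by library size alone, by upper quartile or by DESeq2 size factors, a filter of 1 CPM in 3 libraries or none, limma-voom (limma 3.58.1), DESeq2 1.42.0 with its Wald test, the replicate block and each library left out. Figures were drawn with matplotlib 3.10.9.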

Additional observations from a re-analysis of the deposited data

How the results depend on the processing

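Of the 31 called members, 25 kept their call and direction in every alternative in which they were tested and 6 lost the call in at least 1. Of the 17 that did not pass, 14 passed in at least 1 alternative and 3 in none. The 14 alternatives were 13 for 5 members under 1 CPM, which a filter of 1 CPM left out. Several members near 0 changed sign between scalings or with a library left out. With library size alone the log2 fold changes were -0.11 for TRIM26, -0.10 for TRIM27, -0.12 for TRIM33, -0.04 for TRIM37, -0.04 for TRIM41, -0.12 for TRIM59 and -0.13 for TRIM69, against values above 0 in the reported fit. That scaling also moved the list medians, to -0.39 for innate signalling, -0.40 for COS-box members, -0.20 for the corepressors, -0.30 for the sensors and adaptors and 0.17 for the E2 enzymes. The corepressor median was -0.12 with upper-quartile scaling, -0.10 with the 1 CPM filter and -0.03 with DESeq2 size factors. The median of all genes was -0.12 with no filter and 0.01 with the 1 CPM filter. Lower members numbered 22 to 36 and higher members 4 to 8 over the alternatives, and 22 to 24 and 5 to 7 with 1 library left out. With the replicate number as a block, 23 members were lower and 6 higher, since TRIM4 and TRIM45 lost their calls (edgeR adjusted p = 0.0565 and 0.0690), and 13503 of all genes changed instead of 13957. Same-numbered libraries did not deviate together (correlations -0.0673, -0.0250 and 0.00986 over genes), so the numbers were not taken to pair them. The counts of all genes changed, higher and lower stayed within 1.5 times the reported ones in the alternatives run. Depth limits TRIM54, TRIM55, TRIM67, TRIM73 and TRIM74, all under 1 CPM, where 4 of the 5 did not pass in the reported fit. Among those 4, TRIM74 passed in 2 alternatives, TRIM67 in 1 and TRIM54 and TRIM55 in 0.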

Other observations

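Beside the TRIM genes measured, 10 more had some reads but fell short of the minimum. TRIM29, which lacks a RING finger, had 4, 2 and 8 reads in the DOX-negative and 0, 2 and 0 in the DOX-positive libraries, and TRIM40 had 16, 6 and 6 against 4, 4 and 2. TRIM72, a membrane repair gene of muscle, had 2, 10 and 4 reads against 4, 6 and 12. At these depths no difference was read from them. The pseudogene TRIM80P had 9, 26 and 8 reads against 13, 26 and 12.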
